A study of Mus musculus with 15 samples.

Results

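The 10 genes described here are markers of tendon cells and of the proteoglycan-rich matrix around collagen fibrils: Scx, Tnmd, Comp, Thbs4, Fmod, Chad, Dcn, Lum, Prg4 and Sparc. They were taken by symbol from 19938 genes named on an Affymetrix mouse array, each by its only probe set, and all 10 passed the filter that left 12056 genes for testing. RNA came from the gastrocnemius, a calf muscle that ends in the Achilles tendon, of male mice of the C57BL/6 strain, aged 12 months, with 1 mouse per array. There were 3 wildtype arrays on control diet, 4 wildtype arrays on calorie restriction (CR), 4 arrays of Sirt3 knockout mice on control diet and 4 of Sirt3 knockout mice on CR. Sirt3 encodes a mitochondrial NAD-dependent deacetylase. The sources used here do not say how it was deleted, in which cells, or how far the diet was restricted.

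Tendon is built of parallel type I collagen fibrils that tendon cells secrete and space with small proteins and proteoglycans. Scleraxis, encoded by Scx, is the transcription factor of tendon progenitors, and tenomodulin (Tnmd) is a membrane glycoprotein of mature tendon cells. Small leucine-rich proteoglycans (here Fmod, Dcn, Lum and the related Chad) bind collagen and regulate fibril growth. In whole muscle such transcripts come from tendon, the junction of fibres with tendon, and the connective tissue sheaths, so their level also depends on how much of these was taken with the muscle. A lower level in whole tissue cannot tell fewer cells of a type from less RNA per cell.

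Values are deposited log2 intensities, on which a difference of 1 is a doubling of signal. Array medians lay between 5.40 and 5.48. Sirt3 itself was lower in every knockout array (4.94 to 6.19) than in any wildtype array (6.38 to 6.68). Muscle fibre markers (10 genes, such as Ckm and Mylpf) had a mean log2 intensity of 12.47 to 12.67 on the 15 arrays. On 4 arrays the mean of a marker set of another tissue was over 2 log2 units above the median array: the sperm chromatin gene Prm1 reached 11.82 on wildtype control replicate 3 and 11.40 on knockout control replicate 1, the pancreatic elastase gene Cela1 11.27 on wildtype control replicate 2, and the albumin gene Alb 11.95 on wildtype CR replicate 4. Alb was also at 11.36 on knockout control replicate 2 and 11.11 on wildtype control replicate 1, which stayed under the limit. Medians, and the CR values of the genes called, are therefore given with and without these 4 arrays. All differences are tested with limma over 12056 genes with Benjamini-Hochberg adjustment at a threshold of 0.05.

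RefSeq promoter sequence was at hand for 5 of the 10 genes, Tnmd, Fmod, Thbs4, Chad and Sparc. The 250 bases before the start site (GRCm38.p6, 5′ to 3′ along the gene) are shown because 4 of these genes varied together from array to array, as described further on. Capitals mark E-boxes, CANNTG, the motif that scleraxis and other basic helix-loop-helix factors bind.
Tnmd (chrX:133850758-133851007, + strand): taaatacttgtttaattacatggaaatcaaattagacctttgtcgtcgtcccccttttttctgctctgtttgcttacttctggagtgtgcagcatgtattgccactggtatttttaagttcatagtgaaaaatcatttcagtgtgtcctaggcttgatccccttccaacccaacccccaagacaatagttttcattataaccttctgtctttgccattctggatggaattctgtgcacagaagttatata
Fmod (chr1:134037004-134037253, + strand): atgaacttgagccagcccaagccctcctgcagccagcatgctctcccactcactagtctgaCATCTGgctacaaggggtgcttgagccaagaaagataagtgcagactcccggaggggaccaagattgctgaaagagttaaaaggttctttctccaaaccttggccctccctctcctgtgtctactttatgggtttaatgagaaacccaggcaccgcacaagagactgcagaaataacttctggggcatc
Thbs4 (chr13:92794819-92795068, - strand): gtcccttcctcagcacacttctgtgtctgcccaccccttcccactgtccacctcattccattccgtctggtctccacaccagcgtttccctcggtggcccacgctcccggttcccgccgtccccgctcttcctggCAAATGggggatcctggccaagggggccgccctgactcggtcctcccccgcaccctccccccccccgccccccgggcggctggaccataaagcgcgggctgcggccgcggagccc
Chad (chr11:94564797-94565046, + strand): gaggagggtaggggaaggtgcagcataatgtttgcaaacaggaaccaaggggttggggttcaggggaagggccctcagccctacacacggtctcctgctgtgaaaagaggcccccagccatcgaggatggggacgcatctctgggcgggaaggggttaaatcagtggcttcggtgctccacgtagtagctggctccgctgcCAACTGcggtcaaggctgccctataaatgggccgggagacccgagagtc
Sparc (chr11:55420081-55420330, - strand): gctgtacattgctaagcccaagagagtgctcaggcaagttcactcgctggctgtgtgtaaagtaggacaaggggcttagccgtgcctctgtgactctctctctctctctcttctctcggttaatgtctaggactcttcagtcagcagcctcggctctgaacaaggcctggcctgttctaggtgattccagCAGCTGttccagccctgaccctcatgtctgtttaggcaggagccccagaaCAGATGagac
An E-box stood in 4 of the 5 windows (not in Tnmd), and in 66.2% of all 32851 mouse promoter windows of this length. The motif reads the same on both strands. The SMAD motif, CAGAC or its reverse complement GTCTG, stood in 3 windows (Fmod, Thbs4 and Sparc) against 42.2% of all. In Fmod, the letters of an E-box and of a SMAD motif follow each other closely, at 189 and 195 bases before the start. The motif TATAAA, searched on both strands, stood only in Chad, 28 bases before the start, against 12.4% of all windows. Such matches are letters in a window and show no binding.

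Scx, the regulator among the 10, was the only gene not lower on CR. Its log2 intensities were 5.78, 6.03 and 5.69 on wildtype control arrays, 5.99, 5.92, 6.01 and 5.59 on wildtype CR, 5.88, 5.88, 5.91 and 5.64 on knockout control, and 5.68, 5.96, 5.97 and 5.88 on knockout CR. The groups overlapped fully. Averaged over genotypes the CR difference was 0.05 (SE 0.08, 95% interval -0.12 to 0.21, limma adjusted p = 0.756). The values lie not far above the filter value of 5.32. RefSeq lists Scx as overlapping Bop1, a gene of ribosome assembly, and whether Bop1 transcripts reach the Scx probe set was not tested.

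Tnmd was highest on the 3 wildtype control arrays. Its log2 intensities there were 7.17, 7.45 and 7.01, against 5.99, 6.60, 6.67 and 6.41 on wildtype CR. In knockout muscle they were 6.64, 6.48, 6.67 and 6.11 on control diet and 6.48, 6.03, 6.26 and 5.88 on CR. Every wildtype control array thus lay above all 12 others, while the other 3 groups overlapped. The CR difference in wildtype was -0.79 (SE 0.19, limma adjusted p = 0.133), or 0.577 of the control signal, and in knockout -0.31 (SE 0.17, limma adjusted p = 0.5). Averaged over genotypes it was -0.55 (SE 0.13) and missed the threshold narrowly, with a limma adjusted p of 0.0541.

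Comp and Thbs4 encode pentameric glycoproteins of the thrombospondin family, of which cartilage oligomeric matrix protein (COMP) binds collagen and thrombospondin 4 is concentrated where muscle joins tendon. Comp stood at 6.88, 6.87 and 6.73 on wildtype control and at 5.52, 6.47, 6.39 and 6.05 on wildtype CR. On knockout arrays it stood at 6.53, 6.38, 6.25 and 6.16 on control diet and at 6.39, 5.98, 6.27 and 5.51 on CR. The wildtype diets did not overlap and the knockout diets did. The lowest Comp values, 5.52 on wildtype CR replicate 1 and 5.51 on knockout CR replicate 4, also lie not far above the filter value of 5.32. Thbs4 stood at 9.56, 9.61 and 9.48 on wildtype control and at 8.83, 9.40, 9.17 and 9.22 on wildtype CR. In knockout muscle Thbs4 was at 9.26, 9.19, 9.31 and 9.44 on control diet, and on CR it split into 2 arrays at 9.27 and 9.28 and 2 at 8.58 and 8.51. The CR difference of Comp was -0.72 (SE 0.22) in wildtype and -0.29 (SE 0.20) in knockout, with limma adjusted p of 0.198 and 0.585. That of Thbs4 was nearly the same in both genotypes, -0.39 (SE 0.18, limma adjusted p = 0.376) in wildtype mice, against -0.39 (SE 0.17, limma adjusted p = 0.379) in knockout.

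The leucine-rich proteins include Fmod (fibromodulin, which binds type I collagen) and Chad (chondroadherin, a matrix protein that cells bind). Chad had the widest range of the 10 genes over the 15 arrays, 2.27 log2 units or 4.82-fold. It stood at 8.79, 8.87 and 8.77 on wildtype control and at 6.78, 8.20, 8.15 and 7.88 on wildtype CR. In knockout muscle Chad was at 8.27, 8.50, 7.87 and 7.71 on control diet and at 8.20, 6.92, 7.94 and 6.60 on CR. The wildtype control arrays agreed closely (SD 0.05), while the 2 CR groups each held arrays more than 1 unit apart (SD 0.66 in wildtype and 0.78 in knockout). Its CR difference was -1.05 (SE 0.39, limma adjusted p = 0.264) in wildtype mice, against -0.67 (SE 0.36, limma adjusted p = 0.476) in knockout. Fmod followed the same arrays, at 9.72, 9.86 and 9.55 on wildtype control and 8.40, 9.50, 9.33 and 8.98 on wildtype CR. On knockout arrays Fmod was at 9.27, 9.49, 9.28 and 9.12 on control diet and 9.34, 8.75, 9.43 and 8.22 on CR. The wildtype diets were separated, but only just, between 9.50 and 9.55. The CR difference of Fmod was -0.66 (SE 0.27, limma adjusted p = 0.326) in wildtype mice, against -0.36 (SE 0.25, limma adjusted p = 0.593) in knockout. Without knockout CR replicate 4, the lowest of the 15 arrays for these and for Comp and Thbs4, the knockout difference was -0.12 for Fmod, -0.40 for Chad, -0.11 for Comp and -0.26 for Thbs4. RefSeq lists Chad as overlapping Acsf2.

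Dcn and Lum, which RefSeq places next to each other on chromosome 10 together with the related Kera, are described next. Dcn (decorin, which decorates collagen fibrils and binds TGF-beta) was at 12.00, 11.85 and 11.91 on wildtype control and at 11.63, 11.71, 11.66 and 11.66 on wildtype CR. In knockout muscle it was at 11.71, 11.80, 11.68 and 11.99 on control diet and at 11.77, 11.67, 11.67 and 11.68 on CR. Its whole range was only 0.38 log2 units, and its wildtype CR difference of -0.26 (SE 0.07, limma adjusted p = 0.181) was small but separated the diets. In knockout it was -0.10 (SE 0.07, limma adjusted p = 0.581), and -0.03 without control replicate 4. Lum (lumican, a keratan sulfate proteoglycan) was at 6.87, 6.98 and 6.82 on wildtype control and at 6.73, 6.78, 6.60 and 6.65 on wildtype CR. The 2 wildtype groups were tight and did not overlap, with a CR difference of -0.20 (SE 0.18, limma adjusted p = 0.624). On knockout arrays Lum spread more, at 7.27, 6.87, 6.84 and 6.42 on control diet and 6.69, 6.41, 5.88 and 6.38 on CR. Its CR difference there was -0.51 (SE 0.17, limma adjusted p = 0.261), the larger of the 2 by size, but the 2 responses did not differ beyond their error (log2 difference of responses -0.31, SE 0.24, limma adjusted p = 0.933).

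Prg4 and Sparc were the 2 genes that fell on CR past the threshold when the genotypes were averaged. Prg4 encodes lubricin, the lubricating proteoglycan of joint and tendon surfaces. It stood at 8.86, 8.91 and 8.22 on wildtype control and at 7.55, 8.16, 8.0 and 8.32 on wildtype CR. In knockout muscle Prg4 was at 8.04, 8.44, 8.54 and 8.24 on control diet and at 7.72, 7.27, 7.94 and 7.55 on CR. The knockout diets did not overlap, whereas in wildtype replicate 3 on control diet lay below the highest CR array. The CR difference of Prg4 was -0.65 (SE 0.21, limma adjusted p = 0.210) in wildtype mice, against -0.69 (SE 0.19, limma adjusted p = 0.218) in knockout. Averaged, Prg4 fell by 0.67 on the log2 scale (SE 0.14, limma adjusted p = 0.0461), to 0.627 of the control signal. RefSeq also lists Prg4 as overlapping the nuclear pore gene Tpr.

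Sparc (osteonectin, a secreted protein that binds collagen and calcium and is needed for collagen deposition) stood at 10.76, 10.95 and 11.07 on wildtype control and at 10.41, 10.53, 10.62 and 10.44 on wildtype CR. In knockout muscle Sparc was at 10.87, 10.48, 10.52 and 10.53 on control diet and at 10.45, 10.40, 10.36 and 10.43 on CR. The diets did not overlap in either genotype. The CR difference of Sparc was -0.43 (SE 0.10, limma adjusted p = 0.117) in wildtype mice, against -0.20 (SE 0.09, limma adjusted p = 0.412) in knockout, where it was -0.11 without control replicate 1. Averaged, Sparc fell by 0.31 on the log2 scale (SE 0.07, limma adjusted p = 0.0461), to 0.806 of the control signal. Both calls lay close to the threshold, and each was kept in 2 of the 15 fits that left out 1 array. Prg4 kept it without wildtype control replicate 3 or knockout control replicate 1, and Sparc without wildtype control replicate 1 or knockout control replicate 1. Without the 2 arrays with germ cell transcripts Prg4 stood at -0.83 (limma adjusted p = 0.0398) and Sparc at -0.23 (limma adjusted p = 0.0740). Without all 4 arrays with markers of another tissue they stood at -0.87 (limma adjusted p = 0.0850) and -0.17 (limma adjusted p = 0.323).

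**Figure D1:**
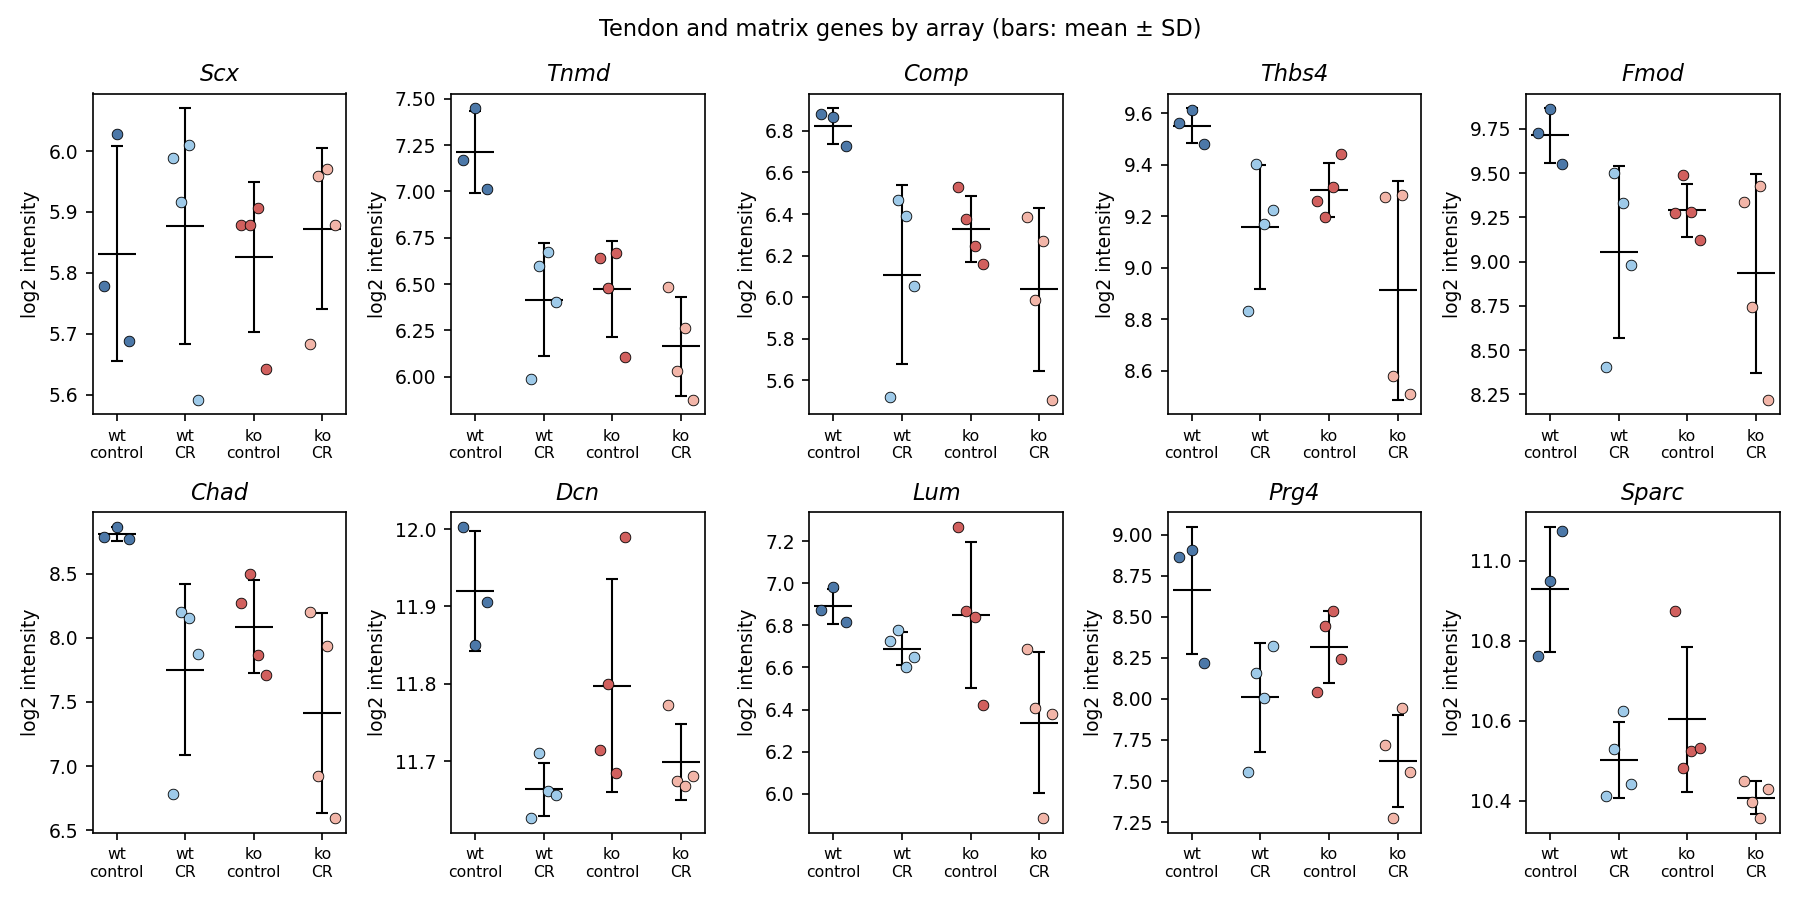
Log2 intensity (vertical axes, own scale per gene) of the 10 genes on each array in the 4 groups (wt, wildtype; ko, Sirt3 knockout), with group mean and SD as bars. Wildtype control arrays are the highest group on average for every gene but Scx, and Chad, Comp, Fmod and Thbs4 spread widely on CR.

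Across the comparisons, most of the 10 genes had lower means on CR than on control diet in both genotypes. In wildtype mice 9 of 10 had a log2 difference below 0, against 37.7% of all 12056 genes, and their median was -0.54 against 0.04 for all genes. In 8 of the 10 all CR arrays lay below all control arrays, against 2.95% of all genes. None of the 10 passed the limma threshold there (0.0166% of all genes passed as lower and 0.108% as higher), and 8 were lower at an unadjusted p under 0.05 against 3.4% of all genes. In knockout mice 9 of 10 lay below 0 (47% of all genes) with a median of -0.33 against 0.01, and 2 of the 10, Prg4 and Sparc, were below without overlap (3.08% of all genes). There 0 passed in limma (0.0581% of all genes as lower), and 4 were lower at an unadjusted p under 0.05, against 5.17%. Averaged over genotypes 9 of 10 lay below 0, against 40.5% of all genes, with a median of -0.45 against 0.03. Of the 10, 2 passed as lower and 0 as higher, against 0.423% and 0.647% of all genes, and 9 were lower at an unadjusted p under 0.05, against 6.4%. The members were chosen with earlier results of these data known, so these counts describe the list and are no test of it.

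**Figure D2:**
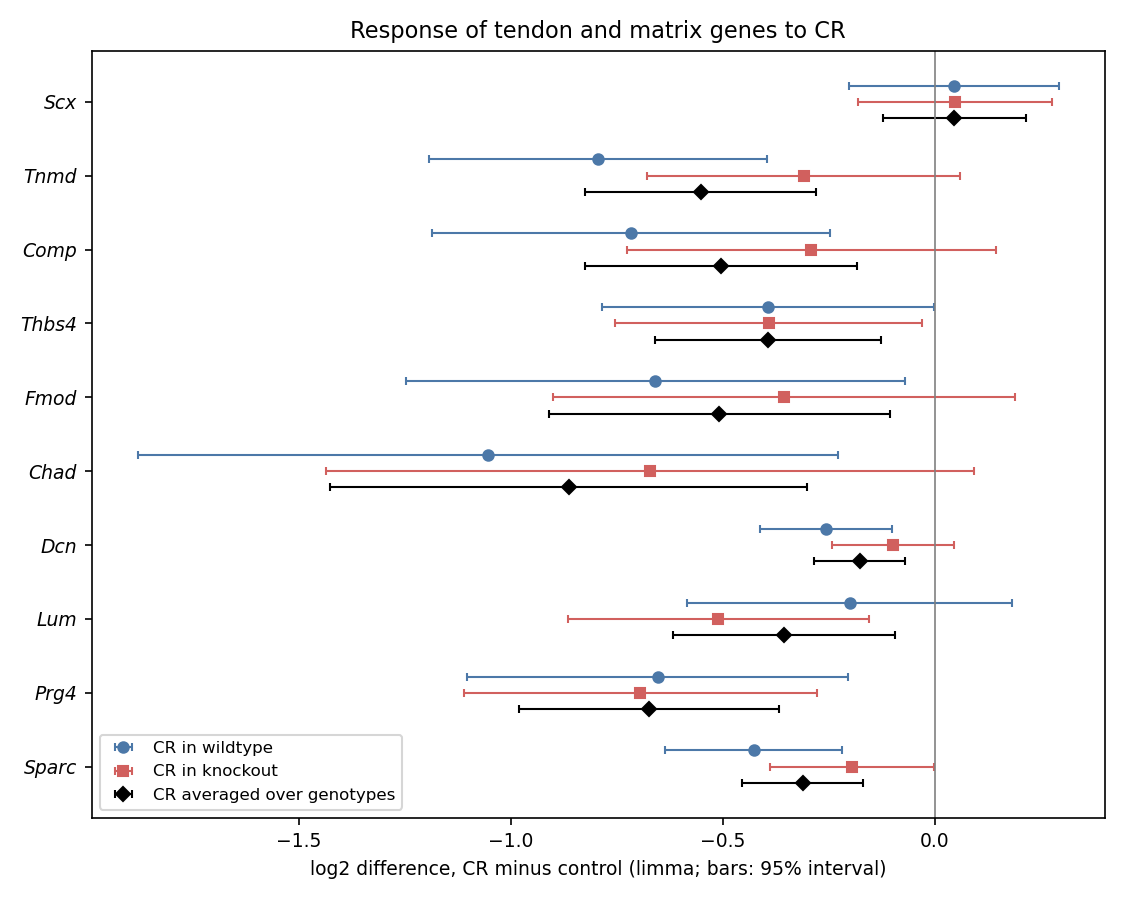
Limma log2 difference of CR minus control (horizontal axis) with its 95% interval for each gene in wildtype, in Sirt3 knockout and averaged over genotypes. The intervals of the average lie below 0 for all genes but Scx, and Chad stands at -1.05 in wildtype and -0.67 in knockout, beside Prg4 at -0.65 and -0.69.

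Whether the response to CR depended on Sirt3 was tested as an interaction. It passed for 0 of the 10 genes in limma (0% of all genes) and was at an unadjusted p under 0.05 for 0 of them (5.71% of all genes). It was below 0 for 2, Prg4 and Lum, against 56.9% of all genes. The median difference of responses was 0.19 against -0.03 over all genes. Tnmd had the smallest p of the 10, with a CR difference that was 0.48 log2 units nearer to 0 in knockout mice (95% interval -0.06 to 1.03, limma adjusted p = 0.863). The intervals were wide: that of Chad ran from -0.74 to 1.51 and that of Prg4 from -0.65 to 0.57.

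On control diet all 10 genes had a lower mean in Sirt3 knockout than in wildtype muscle, against 42.4% of all genes, with a median of -0.34 against 0.02. For 5 of them (Tnmd, Comp, Fmod, Thbs4 and Chad) the groups did not overlap, against 1.29% of all genes. In limma 0 of 10 passed (0% of all genes), and 3 were lower at an unadjusted p under 0.05, against 1.94%. The log2 difference of Tnmd was -0.74 (SE 0.19) and that of Sparc -0.33 (SE 0.10), each with a limma adjusted p of 0.599, and that of Comp was -0.50 (SE 0.22, limma adjusted p = 0.669). This comparison and that of CR in wildtype share the same 3 wildtype control arrays, 2 of which are among the 4 arrays over the limit for another tissue's markers. Knockout control replicate 1 is also among the 4. Without the 4 arrays the median on control diet was -0.34, with 9 of 10 genes below 0 and 1 wildtype array left. The median without them was -0.18 on CR, -0.27 averaged over diets and 0.19 for the interaction. On CR the genotypes overlapped for all 10 genes, while 2.76% of all genes were below and 1.84% above without overlap. There the median was -0.18 against -0.01 for all genes, 9 of 10 lay below 0 (53.3% of all genes), 0 were at an unadjusted p under 0.05 (5.92% of all genes), and 0 passed in limma (0.0166% of all genes as lower). Lum had the smallest p, at -0.35 (SE 0.17, limma adjusted p = 0.842). Averaged over the diets all 10 lay below 0, against 46.8% of all genes, 0 passed in limma (0% of all genes), and 3 (Tnmd, Prg4 and Sparc) were lower at an unadjusted p under 0.05, against 2.85%. By group mean, the order was wildtype control, knockout control, wildtype CR and knockout CR for 8 of the 10 genes. The 2 exceptions were Dcn, with knockout CR above wildtype CR, and Scx, whose groups differed by less than their spread.

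Several of the genes shared their low arrays. The same 3 arrays, wildtype CR replicate 1 and knockout CR replicates 2 and 4, were the lowest of all 15 for 6 genes: Tnmd, Comp, Thbs4, Fmod, Chad and Prg4. For Chad these 3 lay at 6.60 to 6.92, and the next array was 0.79 log2 units higher. Pearson's r over the 15 arrays was 0.96 between Comp and Fmod, between Fmod and Chad and between Comp and Chad. Among Tnmd, Comp, Fmod, Chad and Thbs4, a group chosen after these values were seen, the 10 pairs had r from 0.79 to 0.96 and Spearman's rho from 0.67 to 0.94. With the group means removed, r was 0.61 to 0.95, so the relation was also present within groups. With the group means left in, but without the 2 arrays farthest from the median of each pair's first gene, r was 0.72 to 0.92. Leaving out 2 arrays cannot remove all 3 shared low arrays, so this does not show the relation without them. Prg4 was related to these 5 more weakly (r of 0.73 to 0.83, and 0.45 to 0.62 within groups).

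Sparc, Dcn and Lum did not follow those 5 within groups. Over all arrays their r with the 5 was 0.34 to 0.80, but with the group means removed it was -0.28 to 0.38. Scx had r of -0.46 to 0.03 with the 9 others. The points share the hybridised RNA of 15 mice and the normalization across arrays, and these values are descriptions with no test.

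**Figure D3:**
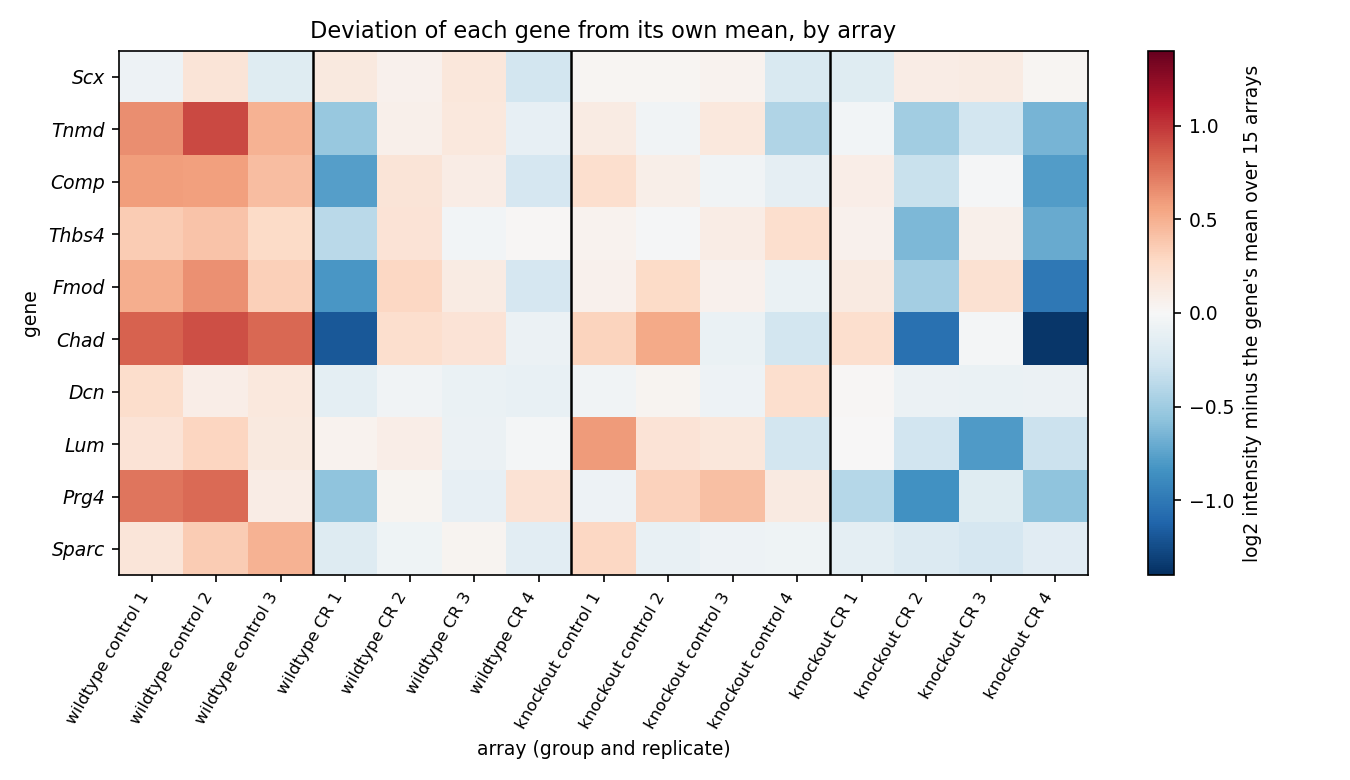
Deviation of each gene (rows) from its own mean over the 15 arrays (columns, in 4 groups), in log2 units by colour. Wildtype control arrays are high for 9 genes on average, and wildtype CR replicate 1 and knockout CR replicates 2 and 4 are low for Tnmd, Comp, Thbs4, Fmod, Chad and Prg4.

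**Figure D4:**
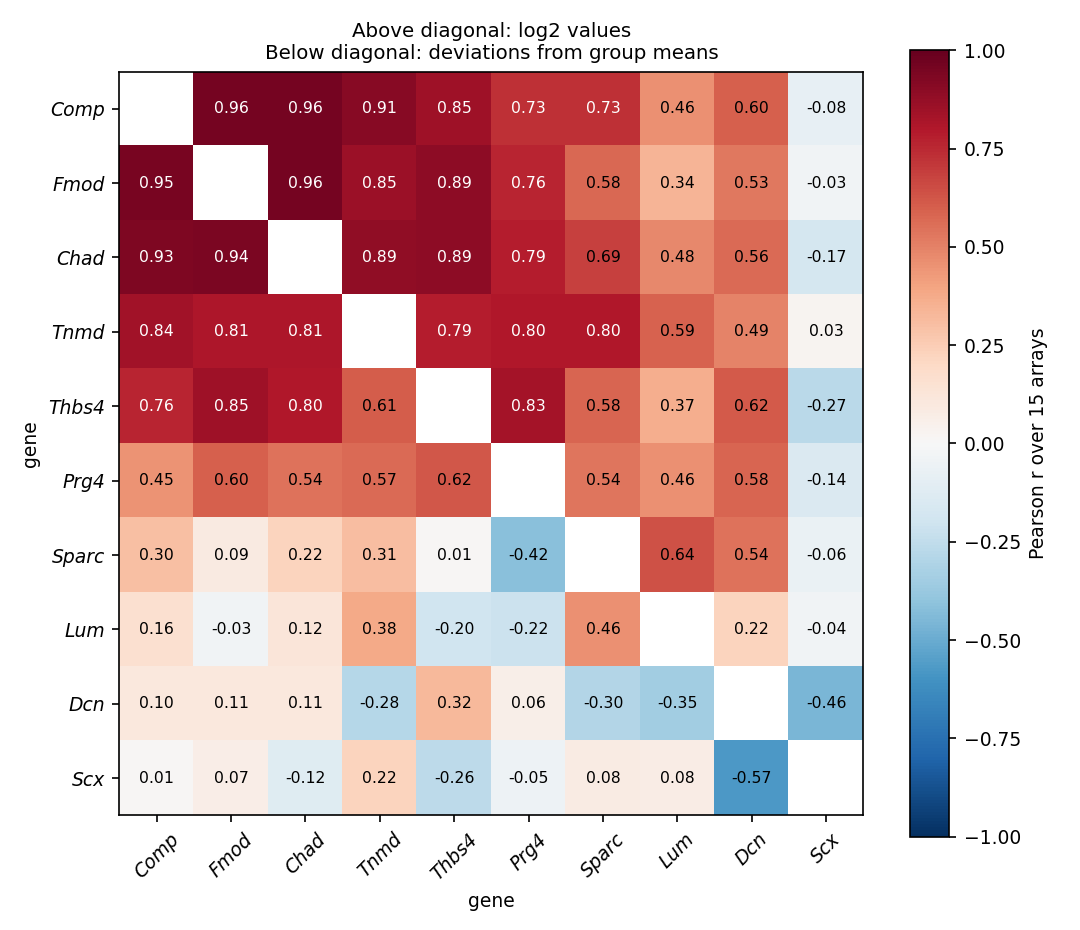
Pearson's r between pairs of the 10 genes over 15 arrays, from log2 values above the diagonal and from deviations from group means below it. Comp, Fmod, Chad, Tnmd and Thbs4 keep r of 0.61 or more within groups, and Scx, Dcn, Lum and Sparc do not join them.

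Among genes outside the 10, those most like their mean over the 15 arrays also encode matrix proteins or their enzymes and receptors. Serpinf1, a secreted serpin also called PEDF, had the highest r, 0.97 (0.94 within groups). Mfap4, a microfibril-associated protein, followed with 0.91 (0.88 within groups). Tnc (tenascin-C, a glycoprotein of tendon and the junction with muscle), Mmp2 (a gelatinase), Cpxm2 (a carboxypeptidase-like protein) and Ddr2 (a collagen receptor) had r of 0.90, 0.89, 0.89 and 0.87. Rhobtb1 and Gid4 had 0.90 and 0.86, with 0.75 and 0.53 within groups. Likeness was measured over 12046 other genes and ranks them without a test.

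Lists of related matrix, tendon and junction genes had medians nearer 0 than the 10 genes, which was not tested as a difference. At a limma unadjusted p under 0.05 for the averaged CR difference, 6.4% of all genes were lower. Lower were 3 of 9 other leucine-rich proteoglycans, 4 of 11 tendon collagens, 5 of 13 collagen processing and 3 of 15 TGF-beta signalling genes. In these lists 0 were higher. The SPARC family had 1 of 5 lower and 0 higher, other tendon genes 1 of 11 each way and the myotendinous junction list 2 of 12 each way. Of 9 other leucine-rich proteoglycans tested, 0 passed for CR averaged over genotypes, with a median of -0.11. Kera (keratocan), the neighbour of Lum, had the smallest p, with means of 6.92 ± 0.33 (SD, n = 3) on wildtype control and 5.88 ± 0.62 (SD, n = 4) on wildtype CR. Its difference there was -1.03 (SE 0.33, limma adjusted p = 0.213). Other tendon genes (11 tested, 0 passed) had a median of -0.09. Fibin, a secreted protein first described in zebrafish fin, differed the opposite way, with wildtype means of 6.27 ± 0.07 (SD, n = 3) on control and 7.30 ± 0.07 (SD, n = 4) on CR. Its averaged CR difference was 1.02 (SE 0.26, limma adjusted p = 0.0758), although knockout control arrays ranged from 5.18 to 7.08.

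Tendon collagens had 0 of 11 past the threshold and a median of -0.06 for CR averaged over genotypes. In wildtype mice 5 of the 11 had all CR arrays below all control arrays (2.95% of all genes), and 0 had them above. The subunits of type I collagen, Col1a1 and Col1a2, stood at -0.64 and -0.64 in wildtype and at -0.12 and -0.17 in knockout, and Col1a2 had the smallest p on average over genotypes (-0.40, limma adjusted p = 0.153). The collagen processing list (0 of 13, median -0.06) was led by the collagen chaperone Serpinh1, at -0.31 (SE 0.08, limma adjusted p = 0.0850). Ltbp4, which tethers latent TGF-beta, led TGF-beta signalling (0 of 15, median 0.01) at -0.27 (SE 0.07, limma adjusted p = 0.0645). In the SPARC family 0 of 5 passed (median 0.05), with Fstl1 at -0.18 (SE 0.05, limma adjusted p = 0.0948). Of the 12 genes of the fibre side of the myotendinous junction 0 passed (median 0.01), with dystrophin (Dmd) at 0.23 (SE 0.06, limma adjusted p = 0.0758).

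**Figure D5:**
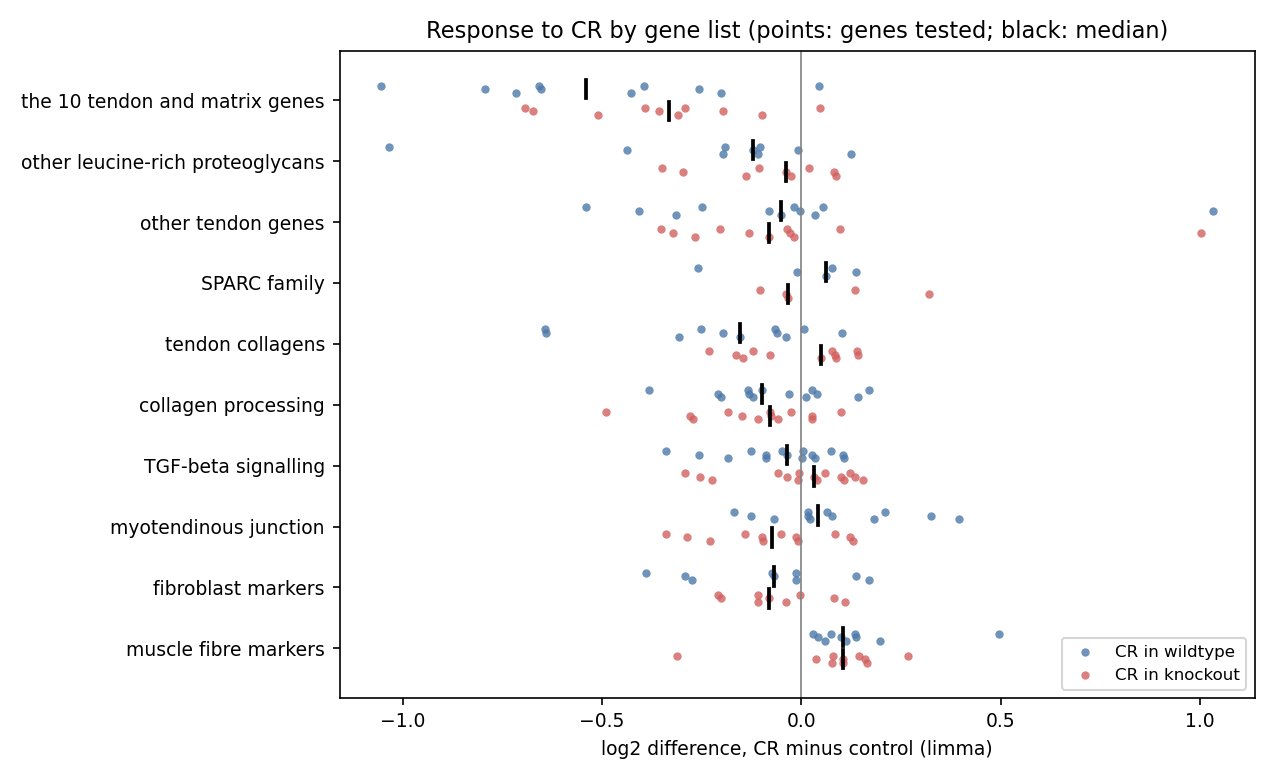
Limma log2 difference of CR minus control (horizontal axis) for each gene tested in the 10 tendon and matrix genes and in related lists, in wildtype and knockout mice, with list medians as black bars. Of the lists drawn, the 10 genes have the lowest medians, -0.54 in wildtype and -0.33 in knockout, and the other lists lie nearer 0.

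Markers of other cells had the following values for CR averaged over genotypes, and their part in the results was not tested. Fibroblast markers had 1 of 9 lower, Cd34, at -0.24 (SE 0.05, limma adjusted p = 0.0461), and a median of -0.04. Their mean log2 level was 7.26 to 7.55 on wildtype control, 7.29 to 7.36 on wildtype CR, 7.23 to 7.41 on knockout control and 7.22 to 7.29 on knockout CR. Muscle fibre markers had 3 of 10 higher, Mylpf at 0.38, Tnni2 at 0.18 and Pvalb at 0.15 (limma adjusted p of 0.0127, 0.0461 and 0.0484). Of the 10, 9 lay above 0 and 1 below, at -0.14. In knockout mice 1 of the 10 was at -0.31, at a limma unadjusted p under 0.05, with all CR arrays below all control arrays. The list's mean level was 12.47 to 12.52 on wildtype control and 12.58 to 12.67 on wildtype CR. It was 12.52 to 12.60 on knockout control and 12.63 to 12.66 on knockout CR, without overlap of the diets within either genotype. In wildtype mice alone Mylpf, a fast myosin light chain, was also called higher, at 0.50 (SE 0.09, limma adjusted p = 0.0489). Of 8 adipocyte markers 4 were higher and 0 lower at a limma unadjusted p under 0.05 (share of all genes higher not given). Adipocyte markers had 0 of 8 past the threshold and a median of 0.46, with Slc36a2 at 0.46 (limma adjusted p = 0.153). They were 0.96, 1.10 and 0.62 log2 units above the median array on the 3 arrays with the lowest tendon genes, and 0.72 above it on knockout CR replicate 1, where Chad was at 8.20 and Fmod at 9.34 but Prg4, at 7.72, was below every control array. Their mean level was 6.87 to 7.30 on wildtype control, 6.77 to 8.18 on wildtype CR, 7.09 to 7.62 on knockout control and 7.21 to 8.31 on knockout CR.

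Macrophage and leukocyte markers had 0 of 10 past the threshold with a median of -0.28 and Lyz2 at -0.28 (limma adjusted p = 0.0966). Of the 10, 9 lay below 0, against 40.5% of all genes. At a limma unadjusted p under 0.05, 6 were lower (6.4% of all genes) and 0 higher. The list's mean level was 6.25 to 6.65 on wildtype control and 6.02 to 6.25 on wildtype CR. It was 6.21 to 6.48 on knockout control and 5.91 to 6.39 on knockout CR. For endothelial (0 of 10, median 0.03), smooth muscle and pericyte (0 of 10, median 0.15) and Schwann cell markers (0 of 4, median 0.02) no gene passed in limma. At a limma unadjusted p under 0.05, 0, 4 and 0 of them were higher and 0 lower. The share of all genes higher at this level is not given. In these lists the smallest p were those of Egfl7 at 0.14, Mcam at 0.23 and Sox10 at 0.05 (limma adjusted p of 0.323, 0.0723 and 0.597). Cartilage markers had 0 of 4 tested genes past the threshold (median 0.12, Col2a1 at 0.12 with a limma adjusted p of 0.176) and of 8 bone markers only Alpl was tested, at -0.42 (limma adjusted p = 0.123). The cartilage list's mean level was 5.07 to 5.52 over all arrays and the bone list's 4.43 to 4.73, against a filter value of 5.32, and neither list's other genes were tested. Markers of male germ cells (0 of 13, median -1.49), pancreatic acini (0 of 6, median -1.30) and liver (0 of 12, median -0.17) did not pass either, with Hspa1l at -0.86, Cpa1 at -1.69 and Cyp2e1 at 0.52 (limma adjusted p of 0.0701, 0.224 and 0.452). Without the 4 arrays over the limit, the median CR difference of the 10 tendon and matrix genes was -0.54 in wildtype, where 1 control array is left (with Alb at 11.11) and assumed to vary like the other groups, and -0.31 in knockout. In limma 0 of 10 passed in either genotype, against 0.0664% of all genes in wildtype and 0.274% in knockout.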

How the data were processed

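Gene expression was measured in the gastrocnemius of 15 mice with biotin-labelled cRNA on Affymetrix arrays, per the labels. The submitters' processing notes name RMA, which corrects background, normalizes quantiles and summarizes probes, as the way the authors made the deposited log2 intensities. Its version is not given, nor is a scan batch, and no batch could be tested.

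Of 35556 probe sets, 21789 have 1 gene symbol in the platform annotation, 1621 have several and were left out, and 12146 are unnamed here. Each of 19938 genes was represented by its probe set with the highest mean. The test kept genes whose mean reached the 40th percentile of listed probe sets (5.32, log2). All 15 arrays were fitted with limma 3.58.1 (R 4.3.3) with 1 mean per group and 7 contrasts, two-sided, with Benjamini-Hochberg adjustment over 12056 genes. Errors beside log2 differences are moderated SEs. The fit was tested on simulated data. Figures used Python 3.11.15 and matplotlib 3.10.9. The number of arrays limits the precision.

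The 10 genes, the 19 related lists and the alternatives were chosen with earlier results of these data known. Named were all 10 genes, list genes past the threshold (at most 4 a list) or else the smallest p, and the genes most alike by Pearson's r. Col1a1 was named after its values were seen. The alternatives changed the filter (none, or the 60th percentile), the summary of probe sets, the normalization (quantile or centring), the prior, the arrays that enter the fit, their weights, and the use of replicate numbers as blocks.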

Additional observations from a re-analysis of the deposited data

Results flagged for a closer look

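In 3 of the 30 sets of 4 arrays (10 genes in 3 groups), a gene had 1 array farther from the others than Dixon's 95% limit, where chance gives about 1 in 20. Scx was at 5.64 on knockout control replicate 4, with the other 3 at 5.88 to 5.91. Sparc was at 10.87 on knockout control replicate 1, one of the arrays with high germ cell markers, with the other 3 at 10.48 to 10.53. Dcn was at 11.77 on knockout CR replicate 1, with the other 3 at 11.67 to 11.68.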

How the results depend on the processing

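The median CR difference of the 10 genes kept its sign in every alternative. Without a filter, with the mean of probe sets or with the other prior it could not change, since each gene has 1 probe set. The 60th percentile filter removed Scx, so that median leaves Scx out. When 1 array was left out, the median was -0.51 to -0.38 averaged over genotypes, -0.59 to -0.42 in wildtype and -0.45 to -0.21 in knockout. The weakest values came without wildtype CR replicate 1 (wildtype) and knockout CR replicate 4 (the other 2). The calls were not as firm. Averaged over genotypes, 2 genes passed in limma, and also 2 with the mean of probe sets, which leaves the values of the 10 genes as they were. The count was 3 with a 60th percentile filter, a trended robust prior or array weights, the third gene being Tnmd. It was 1 with centring on the array median (Sparc) and 1 without the 2 germ cell arrays (Prg4), where 0.373% of all genes passed. It was 0 without a filter, with quantile normalization and with the replicate block. Shares of all genes are not given for the other alternatives, so these counts do not single out the 10 genes. Without the 4 arrays with another tissue's markers 1 wildtype control array is left. The median averaged over genotypes was then -0.45. Leaving out 1 array gave counts of 0 to 2, with both genes called only without knockout control replicate 1. In wildtype it gave 0 to 1 (Sparc, limma adjusted p = 0.0481, without knockout control replicate 1). Apart from the fewer arrays in some fits, the cause was not tested. Deviations of same-numbered arrays correlated at -0.64 to 0.50 over 21 pairs, 7 of them over 0.1. Arrays with different numbers were not compared, so these values cannot tell whether replicate numbers pair the arrays.

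Changes of sign were confined to uncalled differences in 6 of the 10 genes. For Scx, CR in wildtype was -0.027 without the 2 germ cell arrays. In the interaction, Prg4 was 0.015 with quantile normalization, 0.10 with array weights, 0.091 without the 2 and 0.17 without the 4 arrays; Scx was -0.010 with quantile normalization, -0.022 with centring, -0.0496 with the replicate block and -0.13 without the 4 arrays; and Thbs4 was -0.021 with centring and -0.019 with the block. For knockout against wildtype on control diet, Scx was 0.046 with the block and 0.030 without the 4 arrays, and Lum was 0.0066 with the block. Averaged over diets Scx was 0.021 with the block. Leaving out 1 array, Scx ranged from -0.027 to 0.14 for CR in wildtype, -0.015 to 0.11 for CR in knockout, -0.097 to 0.074 in the interaction, and for knockout against wildtype from -0.077 to 0.093 on control diet, -0.099 to 0.059 on CR and -0.052 to 0.045 averaged. The interaction ranged from -0.19 to 0.18 for Prg4 and -0.12 to 0.14 for Thbs4. Knockout against wildtype ranged from -0.18 to 0.10 for Lum on control diet, and on CR from -0.27 to 0.11 for Comp and -0.34 to 0.12 for Fmod.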

Other observations

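Some of the 10 genes had their own closest companions among the other genes tested, by Pearson's r over the 15 arrays. For Tnmd these were Serpinf1 (0.94) and Mfap4 (0.92), for Comp Serpinf1 (0.94) and Rhobtb1 (0.90), for Chad Serpinf1 (0.94) and Cpxm2 (0.89), for Fmod Mmp2 and Tnc (0.90 each), and for Thbs4 Prrc1 and Serpinf1 (0.86 each). Serpinf1 thus stood among the closest 2 for 4 of the 10 genes. The other genes had companions outside this set: Raph1 (0.89) and Usp24 (0.87) for Prg4, Phc1 (0.93) and Fem1c (0.91) for Sparc, Cat (0.84) and Npm1 (0.81) for Dcn, Heatr5a (0.92) and Zfp593 (0.89) for Lum, and Sac3d1 (0.80) and Mgme1 (0.78) for Scx. These are the highest of 12046 values each and were not tested.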
